A study of Caenorhabditis elegans
Pristionchus pacificus with 6 samples.

Results

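Brush border and terminal web genes of the C. elegans intestine were followed in RNA from dissected anterior intestines of adult hermaphrodites. The set held 8 genes, picked by identifier and role from 73268 rows in the count table: act-5 (WBGene00000067), erm-1 (WBGene00001333), ifb-2 (WBGene00002054), ifc-1 (WBGene00002055), ifc-2 (WBGene00002056), ifd-1 (WBGene00002057), ifd-2 (WBGene00002058) and pept-1 (WBGene00003877). Control worms carried cdk-2::ZF::GFP, a tagged allele of cdk-2, which encodes a cell cycle kinase, together with zif-1(gk117), a mutation in the gene for a substrate adaptor of protein degradation. CDK-2gut(-) worms carried both of these and also asp-1p::vhhGFP4::zif-1, in which the promoter of the protease gene asp-1 drives a GFP-binding nanobody joined to ZIF-1, and are described as having reduced intestinal ploidy. Worms were grown at 20 °C and the C. elegans strains were dissected 72 hours after egg lay. Intestine lysate of another nematode, Pristionchus pacificus, dissected at 96 hours, was added in equal amount to each pooled lysate as a spike-in. There were 3 libraries per strain, with 11194766 to 18934522 counts each. Whether libraries of a strain stem from separate cultures is not stated in the labels, so the spread behind each p-value may be a technical one.

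The intestine of this nematode is a tube of large epithelial cells whose apical face is covered by microvilli, the brush border. The core of each microvillus is a bundle of actin, and ERM proteins tie that actin to the apical membrane. Beneath the microvilli lies the terminal web, and around the lumen a sheath of intermediate filaments known as the endotube. Transporters in the apical membrane take up the products of digestion.

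All 8 genes were detected in every library, from 82 counts for ifd-1 in control 3 to 19967 counts for pept-1 in CDK-2gut(-) 1, so the intestinal genes of this set were present in all the dissected samples. The 8 genes together took 0.137% to 0.167% of C. elegans counts in the control libraries and 0.315% to 0.340% in the CDK-2gut(-) libraries. All 8 passed the filter on low counts, and 8309 C. elegans genes were tested in all. In counts per 1000000 C. elegans counts (CPM), 6 of the 8 rose and 0 fell in CDK-2gut(-) (quasi-likelihood test in edgeR, with p adjusted over all genes tested by Benjamini-Hochberg and called under 0.05). None was lower at an unadjusted p under 0.05 either, and DESeq2 called 7 higher and 0 lower. Among all genes tested on the same scale, edgeR called 22% higher and 3.61% lower, and DESeq2 called 25% higher and 4.22% lower. The median log2 fold of the 8 genes was 0.84, beside 0.51 over all genes tested. The 10 most abundant C. elegans genes took 60.4% to 66.4% of counts in control and 54% to 55.8% in CDK-2gut(-). With these 10 left out of the total, the median log2 fold of all genes tested was 0.20.

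**Figure D1:**
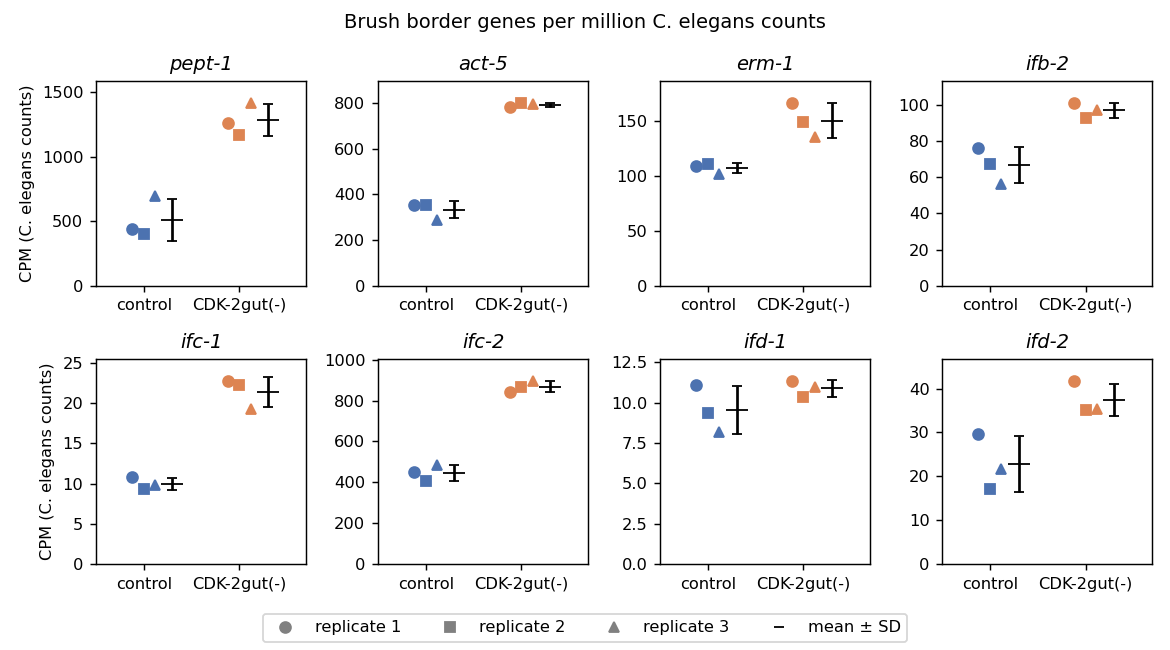
Counts per 1000000 C. elegans counts of each gene in the 3 control (blue) and 3 CDK-2gut(-) (orange) libraries, with marker shape for the replicate number and black bars for the mean ± SD; each panel has its own axis from 0. In 7 panels all orange points lie above all blue points, and in the ifd-1 panel the strains overlap.

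The apical peptide transporter gene pept-1, which encodes the proton-coupled carrier for dipeptides and tripeptides, showed the highest fold of the set on this scale, though act-5 stood above it without control replicate 1 (log2 folds 1.30 and 1.23) and without control replicate 2 (1.30 and 1.18). It stood at 435, 397 and 696 CPM in control replicates 1 to 3 and at 1258, 1170 and 1415 CPM in CDK-2gut(-). The strains did not overlap, and control 3 was well above the other two controls. The mean was 509 ± 163 CPM in control and 1281 ± 124 CPM in CDK-2gut(-) (SD, n = 3 each). The log2 fold was 1.33 ± 0.22 (SE; edgeR adjusted p = 0.00424), higher than in 82.9% of all genes tested.

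Of the genes for the microvillus itself, act-5 had the higher fold. It encodes the actin of the microvillar core, in worms an isoform largely limited to the intestine and the excretory cell. Its levels were 355, 355 and 289 CPM in control and 782, 800 and 795 CPM in CDK-2gut(-). The strains were far apart, and the CDK-2gut(-) libraries had an SD of only 9.20 CPM (n = 3). Its log2 fold of 1.25 ± 0.12 (SE; edgeR adjusted p = 0.000361) was above that of 81.3% of genes tested. Multi-mapping reads are absent from the table, so any read that fits act-5 and another actin gene equally well was not counted.

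The membrane linker gene erm-1, which encodes the only ERM protein of the worm, rose by less. It stood at 109, 111 and 102 CPM in control and at 166, 149 and 135 CPM in CDK-2gut(-). The strains did not overlap, but the lowest CDK-2gut(-) library was only 1.21 times the highest control. Its log2 fold of 0.49 ± 0.13 (SE; edgeR adjusted p = 0.0256) is 0.02 below the median of all genes tested. The log2 ratio of act-5 to erm-1 counts within a library was 1.63 ± 0.11 in control and 2.41 ± 0.16 in CDK-2gut(-) (SD, n = 3 each), without overlap, and p was 0.1 in a two-sided exact permutation test, the lowest value 3 libraries against 3 allow. This pair was picked after its values were seen, out of 28 pairs of the 8 genes, of which 15 did not overlap between strains. The 28 pairs share genes, so they are not independent. The share without overlap over pairs of all genes tested was not computed. For erm-1 the call was lost without CDK-2gut(-) replicate 1 (adjusted p = 0.113), CDK-2gut(-) replicate 2 (0.0951) or control replicate 1 (0.0587).

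The 5 intermediate filament genes of the set encode endotube components, and they did not share a single fold. The most abundant in counts, ifc-2, stood at 451, 406 and 483 CPM in control and at 843, 869 and 895 CPM in CDK-2gut(-). All CDK-2gut(-) libraries were above all controls, at 447 ± 38.8 against 869 ± 26.1 CPM (SD, n = 3 each). The fitted log2 fold came to 0.96 ± 0.11 (SE; edgeR adjusted p = 0.000863).

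Its relative ifc-1 moved by a similar amount at a much lower count. It stood at 10.8, 9.28 and 9.76 CPM in control and at 22.7, 22.3 and 19.2 CPM in CDK-2gut(-), on 98 to 361 counts per library. The strains were separated, and the log2 fold was 1.11 ± 0.19 (SE; edgeR adjusted p = 0.0047).

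The filament gene ifb-2, whose product is widely used as a marker of the endotube, rose by less. Control libraries held 76.2, 67.5 and 56.2 CPM and CDK-2gut(-) libraries 101, 92.7 and 97.4 CPM. The strains did not overlap. Its log2 fold of 0.54 ± 0.15 (SE; edgeR adjusted p = 0.0295) was close to that of the median gene. The call was lost without any 1 of the CDK-2gut(-) replicates, with adjusted p of 0.106, 0.0845 and 0.08 for replicates 1, 2 and 3.

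Neither ifd gene passed the test. Both encode further filament proteins of the intestine. For ifd-2 the levels were 29.7, 17.1 and 21.6 CPM in control and 41.7, 35.1 and 35.3 CPM in CDK-2gut(-). The strains were separated but the controls were spread widely, and the log2 fold of 0.71 ± 0.22 (SE) had an edgeR adjusted p of 0.0511. That p was 0.0224 without control replicate 1, and with all 6 libraries it was 0.021 by DESeq2, 0.0331 by limma-voom and 0.0393 in edgeR with the replicate block, so the call depended on this library and on the choice of test. For ifd-1 the raw counts were 105, 100 and 82 in control and 180, 130 and 124 in the deeper CDK-2gut(-) libraries, or 9.56 ± 1.49 against 10.9 ± 0.509 CPM (SD, n = 3 each). In CPM the strains overlapped, and the log2 fold was 0.19 ± 0.22 (SE; edgeR adjusted p = 0.598), higher than in 32.1% of genes tested. In all, 7 of the 8 genes had CDK-2gut(-) libraries that all lay above the controls, as did 39% of all genes tested.

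**Figure D2:**
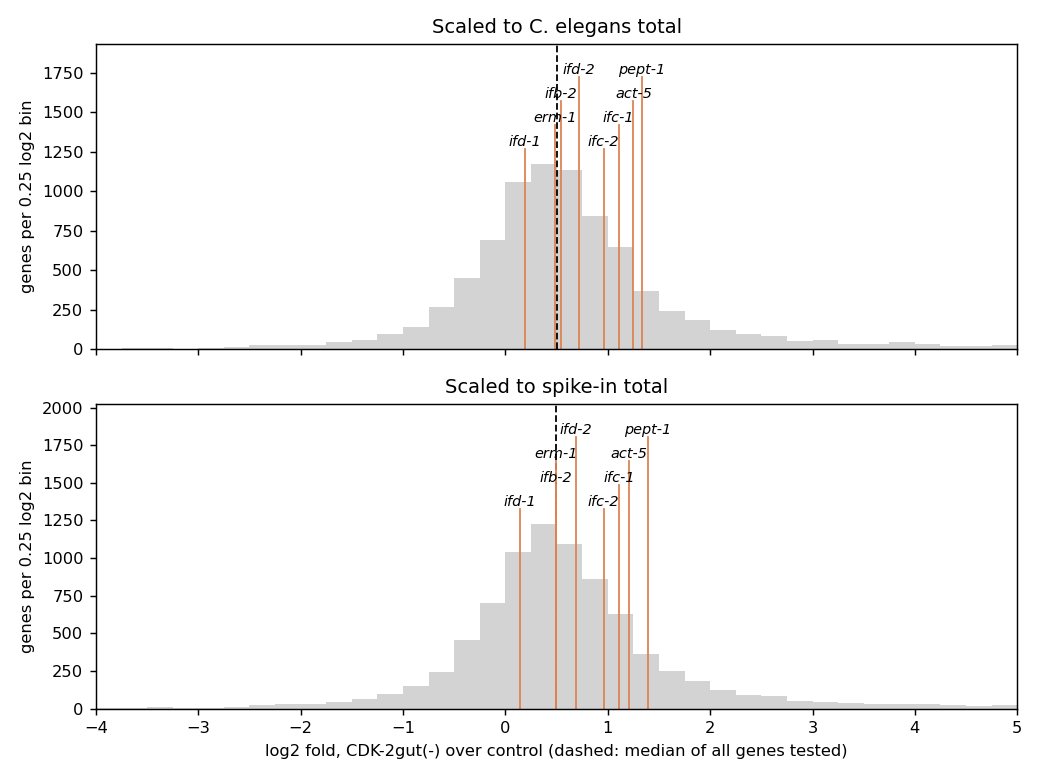
Number of C. elegans genes per 0.25 log2 bin of the fold of CDK-2gut(-) over control, scaled to the C. elegans total (top) and to the spike-in total (bottom), between -4 and 5; the dashed line is the median of all genes tested and the orange lines are the 8 genes. On both scales pept-1, act-5, ifc-1 and ifc-2 lie to the right of the median, and ifd-2 lies less far to its right. The genes erm-1 and ifb-2 lie at the median, and ifd-1 lies to its left.

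The second comparison set the same genes against the spike-in, which asks about the amount of transcript per amount of added lysate. In bulk samples such as these, fewer cells of a type and less RNA per cell cannot be told apart. Only pept-1 and act-5 were called higher of the 8 genes, and 0 were called lower (0 also at an unadjusted p under 0.05 and by DESeq2, which called only pept-1 higher). Over all genes tested on this scale, edgeR called 8.54% higher and 1.47% lower, and DESeq2 called 8.93% higher and 1.43% lower. The log2 folds were nearly those per C. elegans total, since the ratio of C. elegans to spike-in counts was close to equal between strains. It was 5.35, 4.51 and 2.78 in control replicates 1 to 3 and 5.19, 4.61 and 2.78 in CDK-2gut(-). The fewer calls went with the wide spread of that ratio between replicate numbers.

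In counts per 1000000 spike-in counts, pept-1 stood at 2331, 1791 and 1932 in control and at 6525, 5396 and 3929 in CDK-2gut(-). The strains did not overlap, and the lowest CDK-2gut(-) library was 1.69 times the highest control. The log2 fold was 1.39 ± 0.40 (SE; edgeR adjusted p = 0.00894). It was no longer called without CDK-2gut(-) replicate 1 (adjusted p = 0.0777), CDK-2gut(-) replicate 2 (0.109) or control replicate 2 (0.134).

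The microvillar actin gene act-5 stood at 1900, 1600 and 803 counts per 1000000 spike-in counts in control and at 4058, 3691 and 2206 in CDK-2gut(-). Both replicate 3 libraries were the lowest of their strain, and the strains were still separated. The log2 fold was 1.21 ± 0.41 (SE; edgeR adjusted p = 0.0364). This call was kept without CDK-2gut(-) replicate 3 (adjusted p = 0.0192) and lost without any other single library, at adjusted p from 0.0612 to 0.322.

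The filament gene ifc-2 also had no overlap between strains on this scale, at 2415, 1831 and 1340 in control and 4375, 4007 and 2486 in CDK-2gut(-). The margin was small, with the lowest CDK-2gut(-) library at 1.03 times the highest control. Its log2 fold of 0.96 ± 0.41 (SE) had an edgeR adjusted p of 0.136. That p was 0.0246 without CDK-2gut(-) replicate 3 and from 0.166 to 0.607 without any other single library. With pept-1 and act-5 this makes 3 of 8 genes without overlap, as against 19% of all genes tested.

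**Figure D3:**
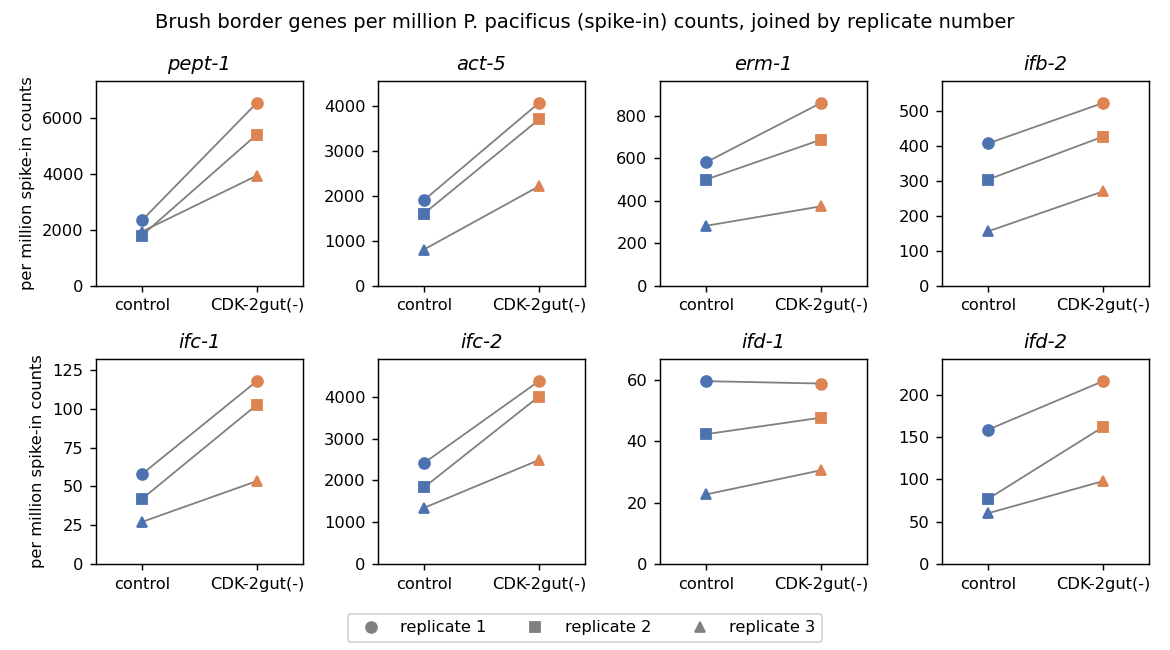
Counts per 1000000 spike-in counts of each gene in control (blue) and CDK-2gut(-) (orange), with lines joining libraries of the same replicate number and each axis starting at 0. Lines rise in every panel except for replicate 1 of ifd-1, and both replicate 3 libraries are the lowest of their strain in all panels but that of pept-1 in control.

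Within replicate numbers the direction was nearly uniform, though the labels do not say that libraries of the same number belong together. Of the 24 ratios of a CDK-2gut(-) library to the control of the same number, 23 were above 1, and the exception was ifd-1 in number 1, with a log2 ratio of -0.019. All 3 ratios were above 1 for 7 of the 8 genes, as for 50.1% of all genes tested. For pept-1 the log2 ratios in numbers 1, 2 and 3 were 1.48, 1.59 and 1.02. For act-5 they were 1.09, 1.21 and 1.46. For ifc-1 they were 1.03, 1.29 and 0.98, and for ifc-2 0.86, 1.13 and 0.89. The values were 0.57, 0.46 and 0.41 for erm-1 and 0.36, 0.49 and 0.79 for ifb-2. Those of ifd-2 were 0.44, 1.07 and 0.71, and those of ifd-1 were -0.019, 0.17 and 0.43. When the spike-in fit took replicate number as a block, 7 of the 8 genes were called higher, all but ifd-1, beside 18.9% of all genes tested. The adjusted p in that edgeR fit was 0.0035 for pept-1, 0.00278 for act-5, 0.00513 for ifc-2 and 0.0183 for ifc-1. It was 0.0434 for erm-1, 0.0476 for ifb-2 and 0.042 for ifd-2. The block takes up differences between numbers in the ratio of C. elegans to spike-in counts. A blocked fit per C. elegans total gave nearly the same values, with a log2 fold of 1.26 for act-5, beside 1.25 here. It also called 7 of the 8 genes higher, beside 18.6% of all genes tested. Without the block, the spike-in fit called 2 of the 8 higher.

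The calls depended on the scaling, while the distance of each gene from the median gene moved little. For act-5 that distance was 0.75 in log2 with plain C. elegans totals and 0.74 with trimmed mean of M-values, and for erm-1 it was -0.02 and -0.04. Scaling by trimmed mean of M-values (TMM) over C. elegans genes moved the median log2 fold of all genes from 0.51 to 0.10 and called 980 genes higher and 568 lower, where plain totals called 1830 and 300. Of all calls, 63.3% were then higher, as against 85.9% with plain totals. Of the 8 genes, 2 were called higher, beside 11.8% of all genes tested. These were act-5, with a log2 fold of 0.85 (edgeR adjusted p = 0.00805), and ifc-1, with 0.68 (0.0473). The fold of pept-1 was 0.90 (adjusted p = 0.0701) and that of ifc-2 was 0.54 (0.0928). For erm-1 and ifb-2 it was 0.07 and 0.13, and for ifd-1 it was below 0, at -0.22.

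Further scalings gave further counts. With the 10 most abundant genes left out of the C. elegans total, 4 of the 8 genes were called higher (pept-1, act-5, ifc-1 and ifc-2), beside 13.1% of all genes tested. Higher calls then made up 69.7% of all calls, and the log2 fold of ifd-1 was -0.13. With median-of-ratios size factors only act-5 was called (log2 fold 0.71, edgeR adjusted p = 0.0435), beside 9.24% of genes, and 54.2% of calls were higher. On that scale erm-1, ifb-2 and ifd-1 had log2 folds of -0.08, -0.0022 and -0.36. With TMM over P. pacificus genes added to the spike-in scale, 4 of the 8 were called higher, again pept-1, act-5, ifc-1 and ifc-2, beside 16.4% of all genes tested. In filtered edgeR fits with all libraries, the fold of act-5 passed under each of these scalings. Per spike-in total it was not called by DESeq2 (adjusted p = 0.0947) or limma-voom (0.0711), nor by edgeR with no filter on low counts (0.0537).

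**Figure D4:**
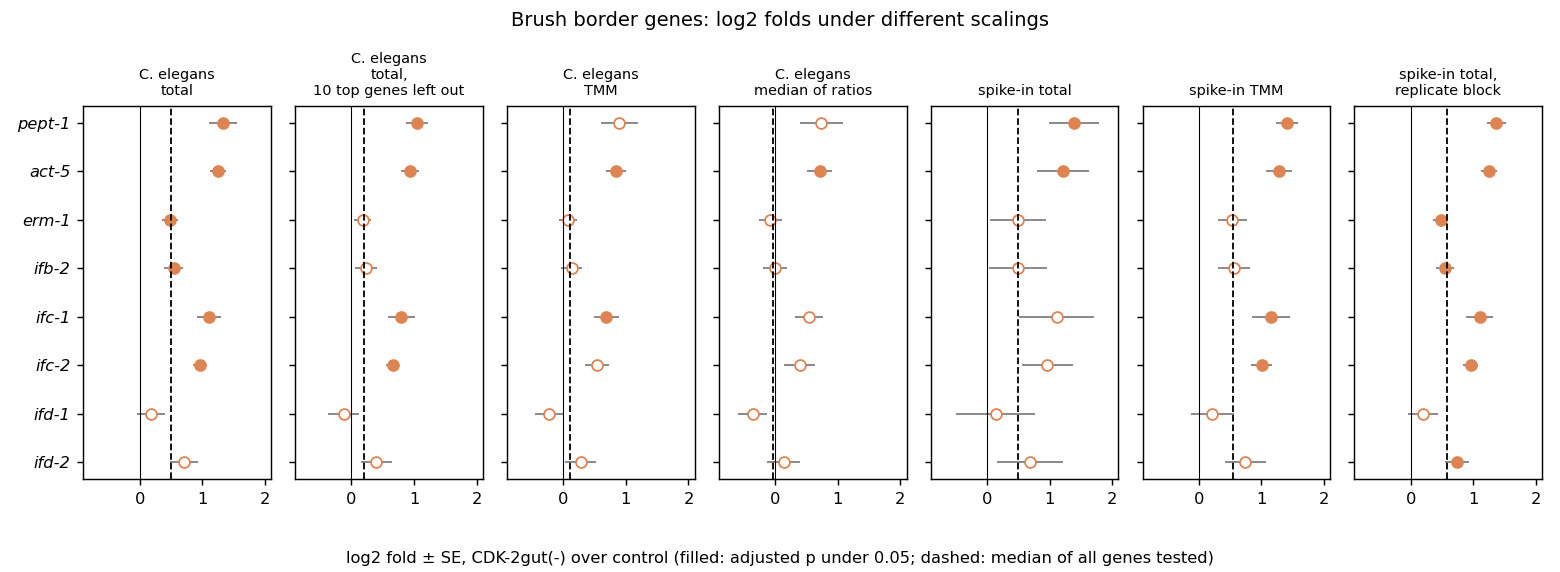
Log2 fold of CDK-2gut(-) over control ± SE for each gene under 7 scalings, with filled points for an edgeR adjusted p under 0.05, a solid line at 0 and a dashed line at the median of all genes tested. The order of the genes is much the same in every panel, since a change of scaling shifts all genes nearly alike. The set moves with the dashed line, and act-5 is filled in all 7.

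Comparisons within a library need no scaling. Per count of ifb-2, the endotube gene, act-5 stood at 4.66, 5.25 and 5.15 counts in control and at 7.74, 8.63 and 8.16 counts in CDK-2gut(-). All 3 CDK-2gut(-) libraries were above all controls, by 0.70 in mean log2 ratio. This difference had p = 0.1 in a two-sided exact permutation test, the smallest that 3 libraries against 3 can give. The gene ifb-2 was chosen for these ratios after the data were seen. Its pair with act-5 is among the 28 pairs above, of which 15 did not overlap.

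The other genes were set against ifb-2 in the same way. For ifc-1 the ratio was 0.151 ± 0.0198 in control and 0.221 ± 0.0215 in CDK-2gut(-) (SD, n = 3 each), without overlap. For pept-1 it was 5.71, 5.88 and 12.4 in control and 12.4, 12.6 and 14.5 in CDK-2gut(-), so that control 3 came up to the lowest CDK-2gut(-) library without passing it. For erm-1 it was 1.63 ± 0.194 and 1.55 ± 0.141 (SD, n = 3 each), with overlap. For ifd-1 it was lower in CDK-2gut(-), at 0.146, 0.139 and 0.145 in control and 0.112, 0.111 and 0.113 in CDK-2gut(-). The 2 sets of values for ifd-1 did not overlap. They rest on 82 to 180 ifd-1 counts per library, so their narrow spread is not a sign of precision. Of the 7 genes set against ifb-2, 3 were higher without overlap and 1 was lower, beside 18.7% and 16.9% of all genes set against ifb-2.

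The make-up of the filament transcripts was described as the share of each gene in the summed counts of the 5 filament genes, 5429 to 16193 counts per library. Most were ifc-2, at 80.4% ± 2.83 in control and 83.9% ± 1.07 in CDK-2gut(-) (SD, n = 3 each). The strains overlapped, since control 3 had 83.5% (two-sided exact permutation test, p = 0.2). The share of ifb-2 was 12% ± 2.03 in control and 9.37% ± 0.471 in CDK-2gut(-) (SD, n = 3 each; exact permutation p = 0.2), again with control 3, at 9.71%, inside the range of the other strain.

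Of the 5 shares, that of ifd-1 alone did not overlap between strains. It was 1.92%, 1.84% and 1.41% in control and 1.11%, 1.00% and 1.04% in CDK-2gut(-). The difference was -0.673 percentage points (p = 0.1 in the two-sided exact permutation test, the smallest possible here), on 82 to 180 ifd-1 counts per library. The share of ifc-1 was 1.79% ± 0.0945 in control and 2.07% ± 0.221 in CDK-2gut(-) (SD, n = 3 each; exact permutation p = 0.3). The share of ifd-2 was 4.07% ± 0.934 and 3.61% ± 0.413 (SD, n = 3 each; exact permutation p = 0.6). A share falls when another gene of the sum rises, so these 5 values are not independent of each other.

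**Figure D5:**
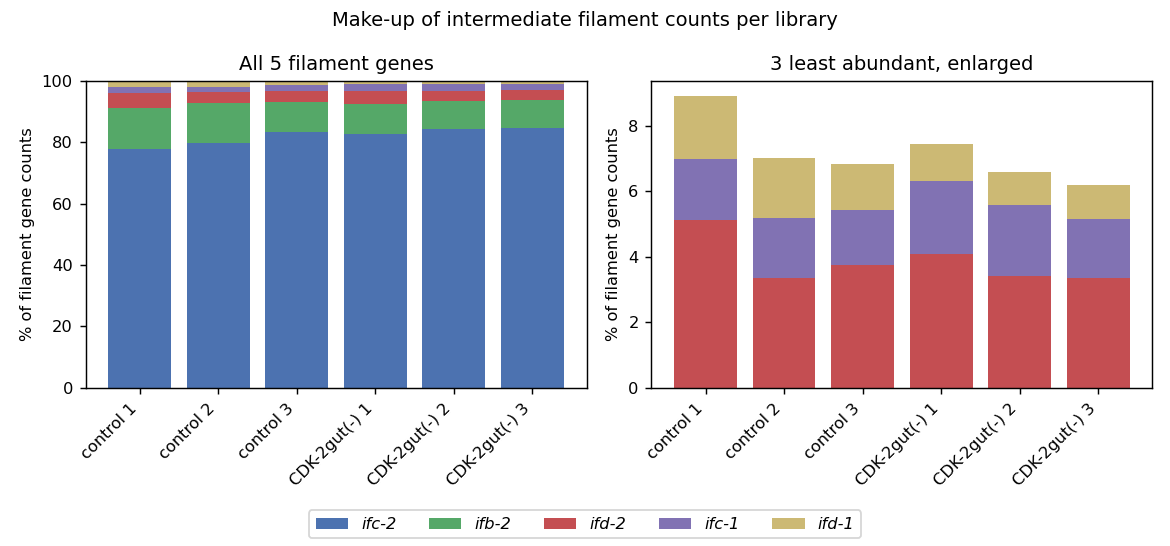
Share of each of the 5 intermediate filament genes in their summed counts, in percent, stacked by library, with the 3 least abundant genes enlarged on the right. The ifc-2 share is the largest in every library, from 77.9% to 84.6%, and the ifd-1 share is smaller in each CDK-2gut(-) library than in each control.

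The profile of the set over the 6 libraries was compared with that of all other C. elegans genes with a mean of at least 100 counts. Of 3549 such genes, WBGene00001399 and WBGene00000227 were most like the mean of the 8 standardised log2 CPM profiles, with Pearson r of 0.998 and 0.997. The 6 libraries fall into the 2 strains, so these values mainly describe a difference between strains and carry no p. WBGene00001399 stood at 84.2 ± 8.31 CPM in control and 170 ± 10.4 CPM in CDK-2gut(-) (SD, n = 3 each). WBGene00000227 stood at 11.7 ± 3.13 and 30.9 ± 1.94 CPM (SD, n = 3 each). The files do not pair these identifiers with names.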

How the data were processed

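The authors deposited raw counts, 1 table with a row per gene of either species. The submitters' processing notes name STAR and featureCounts, and the table's name states that multi-mapping reads are not included. Versions, genome build, annotation and use of strand were not given in the sources used here. Columns were matched to samples by names the labels repeat.

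The 8 genes, the other lists and the row taken as the last C. elegans row (46958) were chosen with earlier results of these data known. The table does not state species; the boundary had been inferred from counts. C. elegans counts were 9432973 to 15874554 and later (spike-in) counts 1761793 to 4060591 per library. None of the 73268 identifiers occurs in the RefSeq gene table (WBcel235), so other brush border genes and markers of other cell types, listed by symbol, were not analysed here. Names of the 8 genes came from the rule that chose them; all 8 symbols occur in that table. Sequences, coordinates and length-scaled levels were not used here.

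Genes passing edgeR's filterByExpr were tested with robust quasi-likelihood fits (edgeR 4.0.16, R 4.3.3), with plain C. elegans or spike-in totals as library sizes. Each SE was taken as log2 fold over the root of the F statistic. Fits were tested on simulated data, where most changed genes were not called. A gene not called here is thus not shown to be unchanged. TMM, median-of-ratios, DESeq2 1.42.0, limma-voom 3.58.1 and left-out libraries were alternatives. Ratios to ifb-2 were chosen after the data were seen.

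Over P. pacificus genes, deviations from the strain means correlated between libraries of the same number at 0.57, 0.59 and 0.85, each above 0.1, so the replicate number was also used as a block in the spike-in fit. Control 1 with CDK-2gut(-) 2 correlated as highly (0.57). Over C. elegans genes the values were 0.11, -0.05 and 0.20, and the numbers were not taken as pairs in the main fits. The scale of a library does not change these correlations. They cannot show whether the ratio of C. elegans to spike-in counts goes by replicate number. In control and CDK-2gut(-) of the same number that ratio was close, at 5.35 and 5.19, 4.51 and 4.61, and 2.78 and 2.78.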

Additional observations from a re-analysis of the deposited data

How the results depend on the processing

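Of 232 log2 folds of the 8 genes under alternative settings, 224 kept the sign reported. The 8 others were ifd-1 per C. elegans total with TMM (-0.22), TMM and a block (-0.21), median-of-ratios (-0.36) and the 10 most abundant genes left out (-0.13); erm-1 (-0.076) and ifb-2 (-0.0022) with median-of-ratios; and ifd-1 per spike-in total without control replicate 3 (-0.16) and without CDK-2gut(-) replicate 1 (-0.083), a range up to 0.49 over single libraries left out. The ifd-2 share difference ranged from -0.818 to 0.070 points over single libraries left out, and its log2 ratio to ifb-2 from -0.011 to 0.30; that of erm-1 to ifb-2 ranged from -0.16 to 0.0097. Counts of genes higher and lower per C. elegans total were 980 and 568 with TMM, 845 and 489 with TMM and the replicate block, 768 and 648 with median-of-ratios, and 1086 and 472 without the 10 most abundant genes; single libraries left out gave 1083 to 2280 and 181 to 302. Per spike-in total they were 1365 and 205 with TMM, 1744 and 241 with TMM and the replicate block, 1458 and 212 with median-of-ratios, 1570 and 247 with the replicate block, and 1347 and 192 without replicate 3 of both strains; single libraries left out gave 368 to 764 and 59 to 169. Of the 8 genes, those called higher per C. elegans total numbered 2 with TMM (act-5 and ifc-1), 2 with TMM and the block (act-5 and pept-1, edgeR adjusted p = 0.0115 for pept-1 and 0.0931 for ifc-1) and 1 with median-of-ratios, and 4 to 6 with single libraries left out. In the same order, the shares of all genes tested that were called higher were 11.8%, 10.2%, 9.24%, and 13% to 27.4%. Per spike-in total they numbered 4 with TMM, 4 with median-of-ratios, 4 without replicate 3, 7 with the block and 7 with TMM and the block. The shares of all genes tested there were 16.4%, 17.5%, 16.2%, 18.9% and 21%. They numbered 1 each with DESeq2, limma-voom and no filter (beside 8.93%, 6.17% and 4.06% of all genes tested). With single libraries left out they numbered 0 to 3, beside 4.43% to 9.19% of all genes tested. With the replicate block per C. elegans total, 1548 genes were higher and 244 lower, and ifd-2 joined the called genes (adjusted p = 0.0393, edgeR). For these shifts the cause was not tested; leaving out libraries lowers the number of samples. TMM with a block was added after the data were seen. The level order and promoter motif alternatives were not run. The low counts of ifd-1 and ifc-1 limit their precision.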
